A study of Rattus norvegicus with 12 samples.

Results

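Interferon-stimulated genes are the set of transcripts that a cell makes in answer to interferon, and they include the machinery that cuts proteins into peptides and loads them on class I molecules. The 33 genes described here were listed by name, and each was found through probe sets whose platform annotation gives exactly 1 gene symbol, equal to the gene or its synonym. Of the 33 genes, 30 had such a probe set, 1 each, among the 27342 probe sets of the array, of which 15097 carry a single gene symbol. Eif2ak2, Parp14 and Xaf1 were not measured under a name. The gene now called Rigi stands in the annotation as Rig1 and was matched through its older name Ddx58.

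The RNA came from monolayers of heart muscle cells, released by enzyme digestion from the hearts of 2-day-old Sprague-Dawley rat pups and grown on laminated coverslips for 3 days. The DEHP group, 6 cultures, was then kept for 3 days in 50 µg/mL DEHP, dissolved in 0.1% DMSO. The control group, 6 cultures, received 0.1% DMSO alone for the same 3 days. DEHP is a phthalate ester that keeps vinyl plastic soft, for example in blood bags and tubing, and can migrate out of it. The labels call the cultures of a group biological replicates. No genetic change is labelled in either group, the animals' strain is shared by both, and all cells came from 1 litter, so the p-values measure the spread between cultures and arrays and not between litters.

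In the interferon pathway, type I interferons bind a receptor whose kinases JAK1 and TYK2 phosphorylate STAT2. STAT2 works with IRF9 in ISGF3, a factor that binds repeats of the letters GAAA in the promoters of antiviral genes, while interferon gamma acts through JAK1 and JAK2 on genes with GAS elements. RIG-I-like receptors in the cytosol start the same programme when they meet viral double-stranded RNA, and most products of the programme block a step in viral growth or help T cells to see infected cells.

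The deposited values set every array against the median of the 12 arrays, probe set by probe set, as a linear ratio. Its log2 is used throughout, so a value says how an array stands relative to the other arrays and never how abundant a transcript is, and no gene's level can be set against another's. Whether the cultures express cardiomyocyte or other markers at all can likewise not be read from such ratios. In RNA from a whole culture, fewer cells of a type and less RNA per cell cannot be told apart. One array of each group stood apart from the rest: over all probe sets the SD of the log2 ratios reached 0.27 for DEHP replicate 6 and 0.37 for control replicate 5, with 0.15 to 0.19 for the other 10 arrays. DEHP replicate 6 was the highest DEHP array for 21 of the 30 measured genes, and control replicate 5 the lowest control array for 15, so results are given with and without them.

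Many of the interferon-stimulated genes measured were higher under DEHP. Of the 30 genes, 15 rose, 2 fell and 13 did not pass an adjusted p under 0.05 (limma, two-sided, Benjamini-Hochberg over all 27342 probe sets, 6 arrays per group). Among all probe sets 10.5% passed as higher and 7.82% as lower. The largest rises were in Rsad2, Mx2 and Oasl, antiviral effectors, at 2.69-fold, 2.68-fold and 2.39-fold, and the 2 genes that fell, Ifit1 and Ifit2, belong to the same effector class. The median log2 fold, DEHP over control, was 0.33 over the 30 genes and -0.022 over all probe sets, and 27 of the 30 log2 folds were above 0. For 14 genes no DEHP array overlapped a control array, which was so for 12.2% of all probe sets.

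Without DEHP replicate 6 the counts were 16 higher and 2 lower, beside 9.99% and 7.39% of all probe sets, and the median log2 fold was 0.22. Without control replicate 5 as well they were 17 higher and 2 lower with a median of 0.24. Calls over all probe sets, in either direction, also grew in that fit, to 5780, against 4752 without DEHP replicate 6 alone and 5016 with all arrays. The 15 genes that rose and the 2 that fell passed in the same direction in both of these fits, Tap1 joined them in both, and Irf7 in the second. The mean log2 ratio over the 30 genes ran from 0.055 to 0.28 in DEHP replicates 1 to 5 and reached 0.65 with DEHP replicate 6, against -0.25 to -0.13 in the control arrays. All 6 DEHP arrays thus lay above all 6 control arrays in that mean.

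Markers of the cell types that such cultures can hold were counted in the same fit, beside 10.5% of all probe sets higher and 7.82% lower. The share of all probe sets at an unadjusted p under 0.05 was not counted, so nothing is read from counts at that threshold here or below. Endothelial markers were higher for 5 of 9 genes and lower for 0 in the limma fit (7 and 0 at an unadjusted p under 0.05), and the mean log2 ratio of the list was 0.15 to 0.46 in DEHP replicates 1 to 5 and -0.17 in DEHP replicate 6, against -0.29 to 0.024 in the control arrays. DEHP replicate 6 was the lowest DEHP array in the mean of the endothelial, smooth muscle, fibroblast and cardiomyocyte markers alike. Leukocyte and macrophage markers were higher for 3 and lower for 2 of 19, with list means of -0.069 to 0.067 in the DEHP arrays, against -0.090 to 0.084 in the control arrays, so the 2 groups overlapped in that mean and the counts lay near the shares over all probe sets. All 5 smooth muscle markers fell, with list means of -1.36 to -0.74 in the DEHP arrays, against 0.74 to 0.91 in the control arrays. Fibroblast markers were higher for 3 and lower for 5 of 8, with list means of -0.28 to 0.033 in the DEHP arrays, against -0.061 to 0.084 in the control arrays. Cardiomyocyte markers were higher for 3 and lower for 3 of 10, at -0.33 in DEHP replicate 6 and 0.032 to 0.17 in the other DEHP arrays, against -0.14 to 0.062 in the control arrays. Without DEHP replicate 6, endothelial markers were higher for 6 and lower for 0, and cardiomyocyte markers higher for 4 and lower for 4. Without control replicate 5 as well, endothelial markers were higher for 7 and lower for 0, and the cardiomyocyte counts stayed at 4 and 4. The fibroblast and smooth muscle counts were the same in both fits as with all arrays. The part of these cell types in the changes of the interferon-stimulated genes was not tested.

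**Figure D1:**
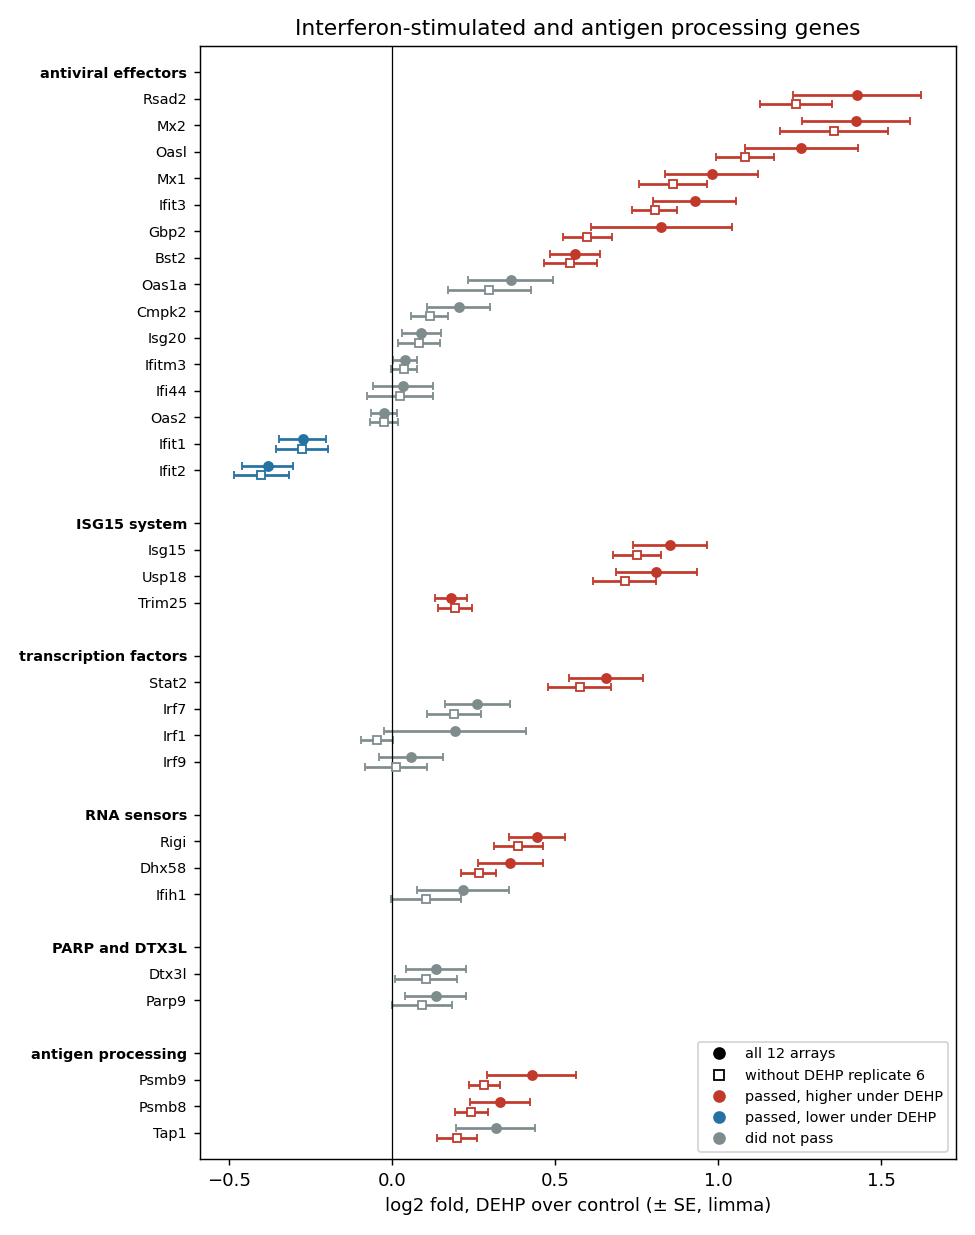
Log2 fold, DEHP over control (horizontal axis, ± SE from limma), of the 30 measured genes grouped by role; filled circles use all 12 arrays and open squares leave out DEHP replicate 6. Red marks genes that passed as higher, blue the 2 that passed as lower (Ifit1 and Ifit2) and grey those that did not pass; the open squares lie closer to 0 for most genes and all but Tap1, which turns red, keep their colour.

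**Figure D2:**
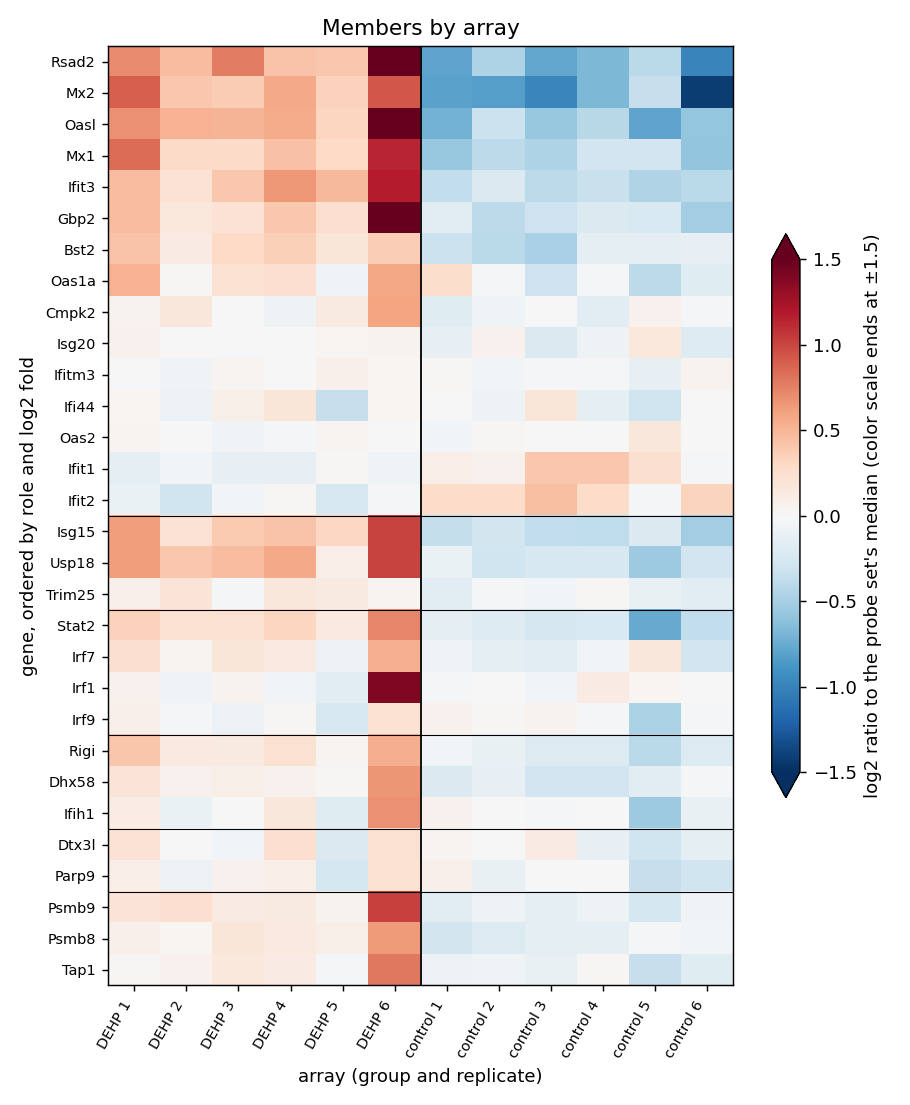
Log2 ratio to the probe set's median (color, ending at ±1.5) for the 30 genes (rows, by role and fold) in the 6 DEHP arrays (left) and the 6 control arrays (right). The rows of Rsad2, Mx2, Oasl, Mx1 and Ifit3 are red in every DEHP array and blue in every control array, and the column of DEHP replicate 6 is the highest DEHP array for 21 genes.

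Promoter sequence from RefSeq (assembly GRCr8) was at hand for 25 of the 33 genes, as the 250 bases before the gene's start; Isg15, Oas2, Dhx58, Usp18, Rigi, Ifit1, Ifit2 and Mx2 had none. The core of the site that ISGF3 and IRF factors bind, searched as GAAANNGAA on both strands, occurred in 15 of the 25 windows, against 8.12% of all 33469 windows in the table (27457 genes). A match to the GAS letters TTCNNNGAA, which read alike on both strands, occurred in 7 of the 25, against 7.67% of all windows. The genes that rose held the IRF-type repeat in 4 of 10 windows and those that did not pass held it in 8 of 12. Matches thus stood both before genes that rose and before genes that did not pass. Only 10 of the 15 genes that rose had a window, with none for Mx2, Isg15, Usp18, Rigi and Dhx58. Of the 13 that did not pass, 12 had one, so the shares of the 2 groups are not compared. The 3 unmeasured genes, Eif2ak2, Parp14 and Xaf1, each held the repeat. Ifit3, Bst2 and Oas1a each had 2 matches, which overlap in Bst2 and Oas1a. A match is a run of letters and not a proven site, and a window without one says nothing about binding.

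The 6 windows printed here belong to genes whose results are compared with each other: Ifit3 and Bst2 rose and hold 2 repeats, Oas1a holds 2 and did not pass, Rsad2 and its neighbour Cmpk2 hold 1 each and differ in response, and Tap1 holds 1 and did not pass with all 12 arrays. They run 5′ to 3′ on the gene's strand, and capitals mark the IRF-type repeats on either strand (GAAANNGAA, or its reverse complement TTCNNTTTC). The windows lie at chr1:241527076-241527325, plus strand (Ifit3), chr16:18254968-18255217, minus strand (Bst2), chr12:41330216-41330465, plus strand (Oas1a), chr6:48788121-48788370, minus strand (Rsad2), chr6:48802600-48802849, plus strand (Cmpk2) and chr20:4668544-4668793, minus strand (Tap1).
Ifit3: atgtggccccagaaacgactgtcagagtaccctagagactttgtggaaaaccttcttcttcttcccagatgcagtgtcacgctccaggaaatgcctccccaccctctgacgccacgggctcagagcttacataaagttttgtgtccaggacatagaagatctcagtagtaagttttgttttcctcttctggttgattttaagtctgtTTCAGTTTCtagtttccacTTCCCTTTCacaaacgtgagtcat
Bst2: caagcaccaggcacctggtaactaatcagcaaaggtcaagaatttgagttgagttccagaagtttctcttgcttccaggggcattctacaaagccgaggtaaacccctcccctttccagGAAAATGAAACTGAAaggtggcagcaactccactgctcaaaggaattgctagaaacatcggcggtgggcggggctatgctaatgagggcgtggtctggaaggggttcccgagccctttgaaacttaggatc
Oas1a: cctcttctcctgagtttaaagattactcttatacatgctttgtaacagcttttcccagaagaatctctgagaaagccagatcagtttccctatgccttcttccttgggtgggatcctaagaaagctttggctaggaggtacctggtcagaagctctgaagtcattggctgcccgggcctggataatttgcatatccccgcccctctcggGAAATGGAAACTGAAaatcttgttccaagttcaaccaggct
Rsad2: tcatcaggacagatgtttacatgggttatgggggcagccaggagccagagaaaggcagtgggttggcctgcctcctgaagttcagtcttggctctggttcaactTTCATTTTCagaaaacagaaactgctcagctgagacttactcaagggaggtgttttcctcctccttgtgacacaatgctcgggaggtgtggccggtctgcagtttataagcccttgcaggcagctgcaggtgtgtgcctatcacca
Cmpk2: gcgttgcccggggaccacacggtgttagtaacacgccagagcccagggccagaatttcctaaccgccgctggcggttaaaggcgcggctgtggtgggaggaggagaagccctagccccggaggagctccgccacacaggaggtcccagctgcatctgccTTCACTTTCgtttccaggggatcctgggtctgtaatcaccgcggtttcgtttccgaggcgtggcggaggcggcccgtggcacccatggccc
Tap1: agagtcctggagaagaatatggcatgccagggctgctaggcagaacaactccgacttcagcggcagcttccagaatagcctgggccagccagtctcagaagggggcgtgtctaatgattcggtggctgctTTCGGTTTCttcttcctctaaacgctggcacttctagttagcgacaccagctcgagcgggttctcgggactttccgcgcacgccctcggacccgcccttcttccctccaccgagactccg
In Ifit3 the matches start 43 and 24 bases before the gene's start, and in Bst2 they start 131 and 125 bases before it. In Oas1a they start 41 and 35 bases before the start, in Rsad2 146, in Cmpk2 91 and in Tap1 120 bases before it. The Tap1 repeat lies between the starts of Tap1 and Psmb9, which run away from each other. Psmb9 rose, and its window does not reach that repeat.

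**Figure D3:**
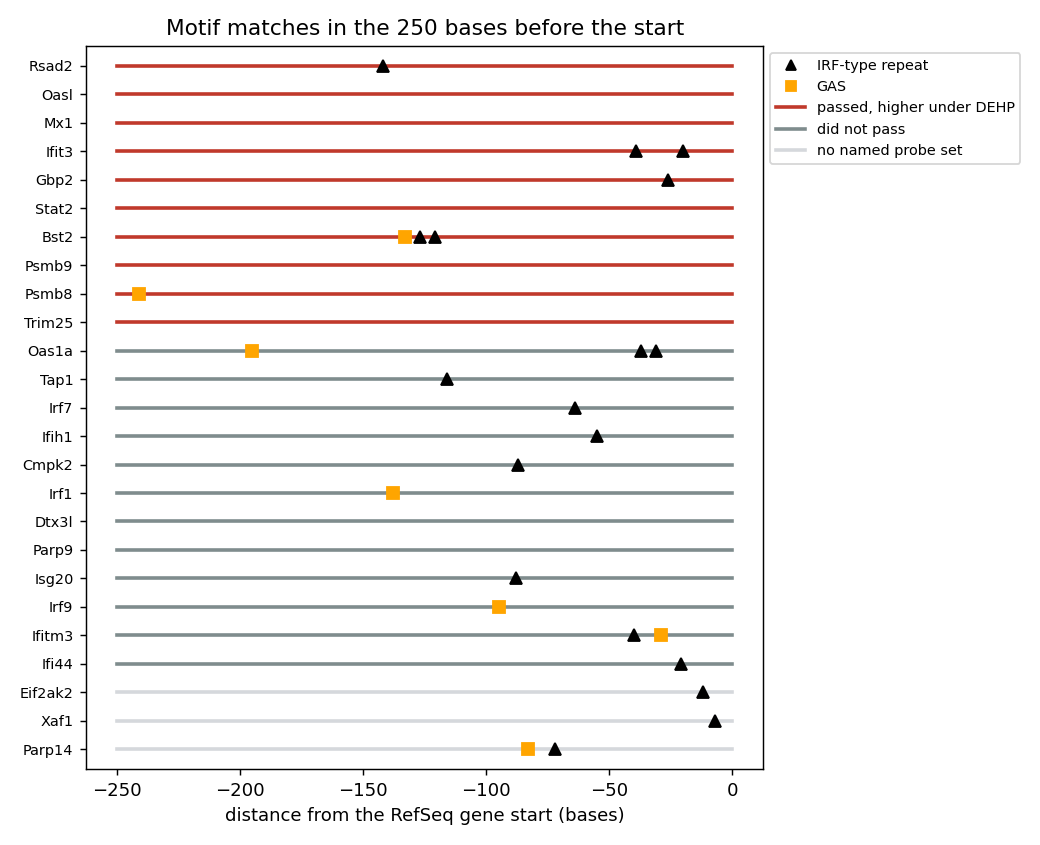
Place of each match to the IRF-type repeat (triangles) and to the GAS letters (squares) in the 250 bases before the RefSeq start (horizontal axis, bases) of the 25 genes with a window. Red lines are genes that passed as higher under DEHP, dark grey lines genes that did not pass and light grey lines genes with no named probe set; triangles stand on 4 of 10 red, 8 of 12 dark grey and 3 of 3 light grey lines.

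Of the 15 antiviral effectors measured, 7 rose, 2 fell and 6 did not pass, beside 10.5% higher and 7.82% lower of all probe sets. In the sentences on single arrays, values are log2 ratios to the probe set's median in order of replicate number, 1 to 6. Mx1 and Mx2, dynamin-like GTPases that trap incoming viral components, are near each other on rat chromosome 11, with 1 protein-coding gene between them in RefSeq. Mx1 read 0.84, 0.29, 0.29, 0.44, 0.30 and 1.14 in the DEHP arrays, against -0.57, -0.39, -0.46, -0.29, -0.29 and -0.60 in the control arrays. Mx2 read 0.89, 0.40, 0.38, 0.57, 0.34 and 0.93 in the DEHP arrays, against -0.80, -0.82, -0.98, -0.67, -0.34 and -1.42 in the control arrays. Every DEHP array lay above every control array for both genes, with DEHP replicates 1 and 6 highest, and control replicate 6 lowest. The log2 fold was 0.98 ± 0.14 (adjusted p = 0.0003) for Mx1 and 1.42 ± 0.16 (adjusted p = 4.56e-05) for Mx2, each ± SE with n = 6 per group, as in all folds that follow.

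Rsad2 encodes viperin, a radical SAM enzyme that makes a chain-terminating nucleotide from CTP, and Cmpk2, its direct neighbour on chromosome 6, encodes a mitochondrial nucleotide kinase that can supply CTP. Rsad2 read 0.71, 0.46, 0.77, 0.43, 0.41 and 1.68 in the DEHP arrays, against -0.79, -0.47, -0.78, -0.67, -0.41 and -0.99 in the control arrays. The groups did not overlap, and DEHP replicate 6 stood far above the other 5 DEHP arrays. The log2 fold of Rsad2 was 1.43 ± 0.20 (adjusted p = 0.000191), and 1.24 (adjusted p = 7.22e-06) without that array. Cmpk2 read 0.052, 0.17, 0.0059, -0.079, 0.14 and 0.59 in the DEHP arrays, against -0.18, -0.061, -0.0059, -0.15, 0.063 and -0.017 in the control arrays. For Cmpk2, DEHP replicates 1, 3 and 4 lay within the control range, and its log2 fold of 0.20 ± 0.096 (adjusted p = 0.184) did not pass. The log2 fold of Rsad2 exceeded that of Cmpk2 by 1.22, an unequal change in an exact permutation test of the per-array difference over the 12 arrays (two-sided p = 0.00216, the smallest this design allows, adjusted p = 0.0026 over 6 pairs chosen after their values were seen). Without DEHP replicate 6 the difference was 1.12 (adjusted p = 0.00519, exact permutation test).

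The 2′-5′-oligoadenylate synthetases make the short adenylate chains that switch on RNase L, which cuts viral and host RNA. Oasl read 0.69, 0.53, 0.51, 0.56, 0.32 and 1.55 in the DEHP arrays, against -0.70, -0.32, -0.57, -0.41, -0.79 and -0.59 in the control arrays. Oasl, whose human counterpart lacks the synthetase activity and aids RIG-I, did not overlap between groups and had a log2 fold of 1.26 ± 0.17 (adjusted p = 0.000209). Oas1a read 0.52, 0.013, 0.22, 0.26, -0.066 and 0.58 in the DEHP arrays, against 0.26, -0.030, -0.31, -0.013, -0.39 and -0.18 in the control arrays. Oas1a, an active synthetase of the family, had 4 DEHP arrays at or below control replicate 1, and its log2 fold of 0.37 ± 0.13 (adjusted p = 0.0756) did not pass with all arrays, but passed without control replicate 1 (adjusted p = 0.0278) and without DEHP replicate 5 (adjusted p = 0.0365). Oas2, another synthetase, had a log2 fold of -0.023 ± 0.039.

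The 3 Ifit genes, which encode tetratricopeptide proteins that bind viral RNA and hold back its translation, lie together on chromosome 1, Ifit2 beside Ifit3 and 1 protein-coding gene between Ifit3 and Ifit1. They did not move together. Ifit3 read 0.46, 0.22, 0.41, 0.65, 0.49 and 1.18 in the DEHP arrays, against -0.37, -0.22, -0.40, -0.34, -0.45 and -0.40 in the control arrays. Ifit3 was above the controls in every DEHP array, at a log2 fold of 0.93 ± 0.13 (adjusted p = 0.000176). Ifit1 read -0.13, -0.039, -0.12, -0.12, 0.019 and -0.069 in the DEHP arrays, against 0.095, 0.070, 0.40, 0.40, 0.24 and -0.019 in the control arrays. Ifit2 read -0.10, -0.30, -0.042, 0.018, -0.25 and -0.018 in the DEHP arrays, against 0.28, 0.28, 0.45, 0.28, -0.023 and 0.33 in the control arrays. For Ifit1, DEHP replicate 5 alone lay above a control array, and for Ifit2, DEHP replicates 4 and 6 lay above control replicate 5 and below the other controls. Both genes fell, by 0.27 and 0.38 on the log2 scale, with an SE of 0.073 and 0.079 (adjusted p = 0.0186 and 0.0039). After cyclic loess between arrays these 2 genes no longer passed, with log2 folds of -0.18 and -0.27 (adjusted p = 0.31 and 0.337). The log2 fold of Ifit3 exceeded that of Ifit1 by 1.20 and that of Ifit2 by 1.31, each with two-sided exact permutation p = 0.00216 (adjusted p = 0.0026), and without DEHP replicate 6 by 1.08 and 1.21 (adjusted p = 0.00519 each). These pairs too were chosen after their values were seen, which the adjustment does not cover. Members of this family resemble each other in sequence, and how far a probe set reads a relative was not tested.

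**Figure D4:**
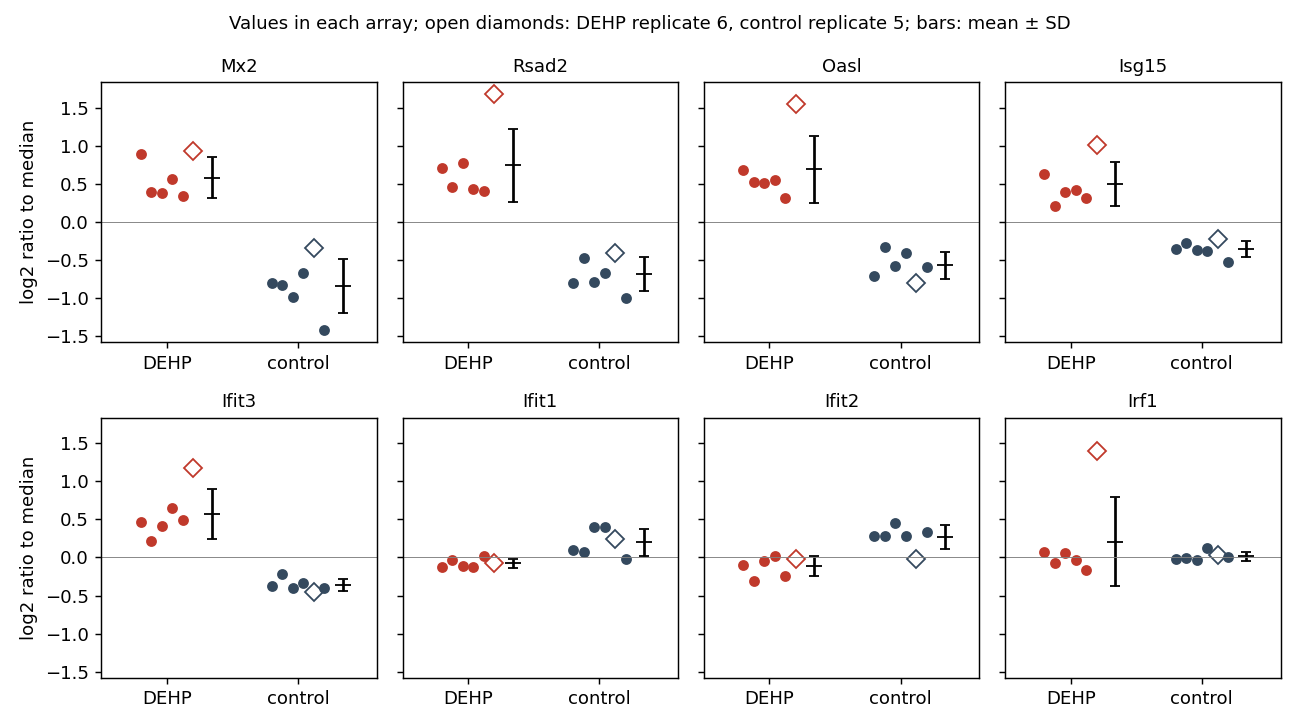
Log2 ratio to the probe set's median (vertical axis) in each DEHP array (red) and each control array (dark blue) for 8 genes; open diamonds are DEHP replicate 6 and control replicate 5, and bars are the mean ± SD of 6 arrays. The groups are apart for Mx2, Rsad2, Oasl, Isg15 and Ifit3, the DEHP arrays lie lower with some overlap for Ifit1 and Ifit2, and for Irf1 DEHP replicate 6 alone, at 1.39, lies away from the rest.

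Bst2 encodes tetherin, a membrane protein that holds budding viruses on the cell, and Gbp2 encodes a guanylate-binding GTPase that coats pathogen vacuoles. Bst2 read 0.43, 0.13, 0.30, 0.36, 0.18 and 0.36 in the DEHP arrays, against -0.33, -0.41, -0.48, -0.14, -0.14 and -0.13 in the control arrays. For Bst2 the groups did not overlap and DEHP replicate 1 was the highest array, at a log2 fold of 0.56 ± 0.076 (adjusted p = 0.000163). Gbp2 read 0.46, 0.15, 0.21, 0.40, 0.25 and 1.66 in the DEHP arrays, against -0.15, -0.39, -0.31, -0.21, -0.22 and -0.52 in the control arrays. Gbp2 also stayed apart between groups, but DEHP replicate 6 lay far above the other DEHP arrays. Its log2 fold was 0.83 ± 0.22 (adjusted p = 0.0166) and, without that array, 0.60 (adjusted p = 0.000125). Ifitm3, which blocks viral fusion in endosomes, had a log2 fold of 0.040 ± 0.037, Isg20, an exonuclease that degrades RNA, 0.090 ± 0.060, and Ifi44 0.035 ± 0.093. These 3 genes did not pass (adjusted p of 0.525, 0.371 and 0.837 in that order).

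Isg15 is a ubiquitin-like protein joined to other proteins in interferon-treated cells, Usp18 is the protease that removes it and also dampens the type I receptor, and Trim25 is a ubiquitin and ISG15 ligase that acts on RIG-I. All 3 rose. Isg15 read 0.63, 0.22, 0.40, 0.42, 0.32 and 1.01 in the DEHP arrays, against -0.36, -0.28, -0.37, -0.38, -0.22 and -0.52 in the control arrays. Usp18 read 0.63, 0.40, 0.46, 0.57, 0.099 and 1.01 in the DEHP arrays, against -0.099, -0.29, -0.24, -0.24, -0.54 and -0.28 in the control arrays. Neither gene overlapped between groups, DEHP replicates 1 and 6 were the highest, and DEHP replicate 5 was the lowest of its group for Usp18. The log2 fold was 0.85 ± 0.11 (adjusted p = 0.000156) for Isg15 and 0.81 ± 0.12 (adjusted p = 0.000455) for Usp18. Trim25 read 0.081, 0.20, -0.023, 0.17, 0.14 and 0.039 in the DEHP arrays, against -0.17, -0.025, -0.041, 0.023, -0.11 and -0.17 in the control arrays. Trim25 moved least of the genes that rose, with DEHP replicate 3 below control replicate 4, at a log2 fold of 0.18 ± 0.049 (adjusted p = 0.0203).

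Of the 4 transcription factors 1 rose, Stat2, beside 10.5% of all probe sets, and nothing is read from a count over so few genes. Stat2 read 0.34, 0.23, 0.22, 0.32, 0.15 and 0.74 in the DEHP arrays, against -0.15, -0.19, -0.25, -0.23, -0.75 and -0.37 in the control arrays. Stat2, the ISGF3 subunit that carries the activation domain, did not overlap between groups, with control replicate 5 and DEHP replicate 6 farthest out, and had a log2 fold of 0.66 ± 0.11 (adjusted p = 0.00118). Without both of these arrays Stat2 stood at 0.49 (adjusted p = 2.02e-05). Irf9, its DNA-binding partner, had a log2 fold of 0.059 ± 0.097 (adjusted p = 0.731). Irf7 read 0.24, 0.039, 0.18, 0.15, -0.087 and 0.53 in the DEHP arrays, against -0.061, -0.14, -0.17, -0.039, 0.17 and -0.29 in the control arrays. Irf7, the factor that amplifies type I interferon production, had DEHP replicates 2, 4 and 5 below control replicate 5, and its log2 fold of 0.26 ± 0.099 (adjusted p = 0.0927) did not pass with all arrays, but passed without both outlying arrays at 0.24 (adjusted p = 0.022), without control replicate 5 alone (adjusted p = 0.0308) and without DEHP replicate 5 (adjusted p = 0.0383). Irf1, a factor strongly induced by interferon gamma, was at 1.39 in DEHP replicate 6 and between -0.16 and 0.069 in the other DEHP arrays, against -0.036 to 0.13 in the control arrays. Its log2 fold was 0.19 ± 0.22 with that array and -0.045 ± 0.049 without it (adjusted p = 0.603 and 0.645).

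The RNA sensors gave 2 rises among 3 genes, beside 10.5% of all probe sets, and nothing is read from a count over so few genes. Rigi read 0.41, 0.14, 0.14, 0.23, 0.040 and 0.54 in the DEHP arrays, against -0.040, -0.11, -0.20, -0.20, -0.40 and -0.20 in the control arrays. Dhx58 read 0.19, 0.060, 0.083, 0.065, 0.020 and 0.66 in the DEHP arrays, against -0.22, -0.13, -0.28, -0.29, -0.16 and -0.020 in the control arrays. Rigi, the cytosolic sensor of RNA with a 5′ triphosphate, and Dhx58, a relative that lacks the signalling domain and tunes the others, did not overlap between groups, and DEHP replicate 6 was highest for both. The log2 fold was 0.45 ± 0.086 (adjusted p = 0.0025) for Rigi and 0.36 ± 0.10 (adjusted p = 0.0223) for Dhx58, and 0.27 (adjusted p = 0.00417) for Dhx58 without DEHP replicate 6. Ifih1, the MDA5 sensor of long double-stranded RNA, had a log2 fold of 0.22 ± 0.14 (adjusted p = 0.357), with DEHP replicate 6 at 0.69 and control replicate 5 at -0.54 as its extremes. Parp9 and Dtx3l, direct neighbours whose products form an ADP-ribosylating ubiquitin ligase complex, had log2 folds of 0.13 ± 0.093 and 0.14 ± 0.092 and did not pass (adjusted p = 0.391 and 0.379).

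Psmb8, Psmb9 and Tap1 lie side by side on chromosome 20. Psmb8 and Psmb9 are catalytic subunits of the immunoproteasome, which take the place of constitutive subunits and favour peptides that fit class I molecules, and Tap1 is one chain of the pump that carries these peptides into the endoplasmic reticulum. Psmb8 read 0.081, 0.034, 0.18, 0.14, 0.087 and 0.64 in the DEHP arrays, against -0.27, -0.21, -0.15, -0.13, -0.034 and -0.041 in the control arrays. Psmb9 read 0.20, 0.25, 0.13, 0.14, 0.058 and 1.02 in the DEHP arrays, against -0.16, -0.079, -0.13, -0.080, -0.26 and -0.058 in the control arrays. Tap1 read 0.019, 0.059, 0.16, 0.12, -0.014 and 0.79 in the DEHP arrays, against -0.087, -0.070, -0.12, 0.014, -0.34 and -0.18 in the control arrays. Groups were apart for Psmb8 and Psmb9 and overlapped for Tap1, where DEHP replicate 5 lay below control replicate 4. DEHP replicate 6 was far above its group in all 3 genes. Psmb8 and Psmb9 rose, with log2 folds of 0.33 ± 0.092 (adjusted p = 0.0233) and 0.43 ± 0.14 (adjusted p = 0.0467), and Tap1 at 0.32 ± 0.12 (adjusted p = 0.095) did not pass. Without DEHP replicate 6 the log2 folds were smaller and all 3 genes passed, at 0.24 (adjusted p = 0.00451) for Psmb8, 0.28 (adjusted p = 0.00122) for Psmb9 and 0.20 (adjusted p = 0.0421) for Tap1. The call of Psmb9 was the least stable: it was lost in 10 of the 12 fits that left out 1 array.

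The constitutive subunits that Psmb8, Psmb9 and Psmb10 replace are Psmb5, Psmb6 and Psmb7. Of 13 measured subunits listed as the constitutive 20S core, 0 rose and 5 fell in the limma fit, beside 10.5% higher and 7.82% lower of all probe sets. The list holds Psmb5, Psmb6 and Psmb7 and also subunits that Psmb8, Psmb9 and Psmb10 do not replace, such as Psma1, Psma4 and Psmb3. Its count is therefore not a count of the replaced subunits. The median log2 fold of the core was -0.15, and at an unadjusted p under 0.05 the counts were 0 higher and 7 lower. Those that fell were Psma1 at -0.15 ± 0.037, Psma4 at -0.19 ± 0.057, Psmb3 at -0.25 ± 0.054, Psmb5 at -0.17 ± 0.037 and Psmb6 at -0.18 ± 0.040 (adjusted p between 0.00464 and 0.0327), and a second probe set of Psmb6 was at -0.22 ± 0.079 (adjusted p = 0.0783). The log2 fold of Psmb8 exceeded that of Psmb5 by 0.51, and that of Psmb9 exceeded that of Psmb6 by 0.61, each with two-sided exact permutation p = 0.00216 (adjusted p = 0.0026). Psmb10, the third replaceable catalytic subunit, exceeded Psmb7 by 0.15 (p = 0.238 in the same exact permutation test). Without DEHP replicate 6 these differences were 0.40, 0.46 and 0.049, with adjusted p of 0.00519, 0.00519 and 0.476. The pairs were chosen after their values were seen, which the adjustment does not cover. Since the values hold no level, they show unequal change and not the share of either subunit in the proteasome.

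Upstream of these genes, 6 of 15 measured members of the interferon signal path rose and 0 fell in the limma fit. Over all probe sets 10.5% were higher and 7.82% lower in that fit. The median log2 fold of the path was 0.21 (8 higher and 0 lower at an unadjusted p under 0.05). Jak2, a kinase of the interferon gamma receptor, stood at 0.92 ± 0.17 (adjusted p = 0.00155), Ifnar1, a chain of the type I receptor, at 0.69 ± 0.15 (adjusted p = 0.00564), and Socs3, a feedback inhibitor of JAK kinases, at 0.66 ± 0.065 (adjusted p = 1.17e-05). Jak1, shared by both receptors, was at 0.45 ± 0.059, Ifngr2, a chain of the interferon gamma receptor, at 0.41 ± 0.093 and the factor Irf2 at 0.36 ± 0.090. Without DEHP replicate 6 and control replicate 5 these 6 genes still passed, at smaller log2 folds. Jak2 was then at 0.68, Ifnar1 at 0.46, Socs3 at 0.65, Jak1 at 0.41, Ifngr2 at 0.30 and Irf2 at 0.25. At the lowest-numbered probe set of each, none of the 5 interferon genes measured passed in the limma fit, nor had any an unadjusted p under 0.05. Ifnb1 had a log2 fold of -0.0019 ± 0.039, Ifng -0.081 ± 0.042 and Ifnk -0.10 ± 0.051. Ifna4 had -0.12 ± 0.077 and Ifna5 -0.0033 ± 0.11 (limma adjusted p of the 5 genes between 0.225 and 0.988). Ifna4 has 2 probe sets and Ifna5 has 5, and their further probe sets are not counted here. Ifna1, Ifna2, Ifna11 and Ifne had no named probe set. Whether the probe sets of the interferon genes stood above background cannot be read from ratios. Among 14 genes of nucleic acid sensing 4 rose and 0 fell in the same fit, with a median of 0.22 and, at an unadjusted p under 0.05, 8 higher and 0 lower. They were Mavs, the adaptor of RIG-I, at 0.32 ± 0.047, Myd88, the adaptor of most Toll-like receptors, at 0.26 ± 0.060, Adar, an RNA-editing enzyme, at 0.51 ± 0.078, and Unc93b1, the chaperone of endosomal Toll-like receptors, at 0.56 ± 0.096.

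Of 41 other interferon-stimulated genes measured, 15 rose, 1 fell and 25 did not pass, beside 10.5% higher and 7.82% lower of all probe sets. The median log2 fold of these 41 genes was 0.18. Those with the smallest p were Cxcl11, a ligand of the receptor CXCR3, at 3.13 ± 0.12, Serping1, the inhibitor of complement C1, at 0.46 ± 0.039, Lgals3bp, a secreted galectin ligand, at 0.47 ± 0.053, Ifi30, a lysosomal thiol reductase that opens antigens, at 0.40 ± 0.059, Ifi27l2b at 0.44 ± 0.066, a Schlafen family gene annotated as Slfn9 and matched through its synonym Slfn13 at 0.77 ± 0.12, and Ifi47, an immunity-related GTPase, at 0.52 ± 0.084. Lgals9, which encodes galectin-9, fell by 0.87 on the log2 scale (SE 0.057, adjusted p = 4.29e-07), and its second probe set fell by 0.46. Cxcl10, a second CXCR3 ligand named here after its values were seen, was at 1.16 ± 0.19 (adjusted p = 0.000801).

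In class I antigen processing beyond the genes above, 6 of 23 rose and 0 fell in the limma fit, with a median log2 fold of 0.14 (10 higher and 0 lower at an unadjusted p under 0.05). Tapbp, the tapasin that bridges the peptide pump to class I molecules, was at 0.93 ± 0.12 (adjusted p = 0.000113). Psme1 and Psme2, which form a cap that opens the proteasome, were at 0.51 ± 0.057 and 0.40 ± 0.10, and their second probe sets rose by 0.25 and 0.33. Erap1, which trims peptides, was at 0.36 ± 0.061, Tap2, the second chain of the pump, at 0.32 ± 0.075, and Tapbpl, a peptide editor, at 0.31 ± 0.097. In class II presentation 1 of 11 rose and 1 fell, near the 10.5% and 7.82% of all probe sets, so nothing is read from this list's count, and its median was -0.11. The 2 genes that passed were Ctss and Cd74: Ctss, the protease that degrades the invariant chain, was at 0.38 ± 0.10, and Cd74, the invariant chain itself, at -0.25 ± 0.069. Without DEHP replicate 6 the counts of the signal path, the other interferon-stimulated genes, class I, class II and the 20S core were the same, and that of nucleic acid sensing was 5 higher and 0 lower. Without control replicate 5 as well, the other interferon-stimulated genes had 16 higher and 3 lower, the 20S core 0 higher and 7 lower and nucleic acid sensing 5 higher and 0 lower, and the counts of the signal path, class I and class II were the same as with all arrays. Over all probe sets 5780 passed in either direction without both arrays, against 5016 with all arrays. The median log2 fold in that fit was 0.12 for the signal path, 0.12 for nucleic acid sensing, 0.12 for the other interferon-stimulated genes, 0.11 for class I, -0.031 for class II and -0.16 for the 20S core.

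**Figure D5:**
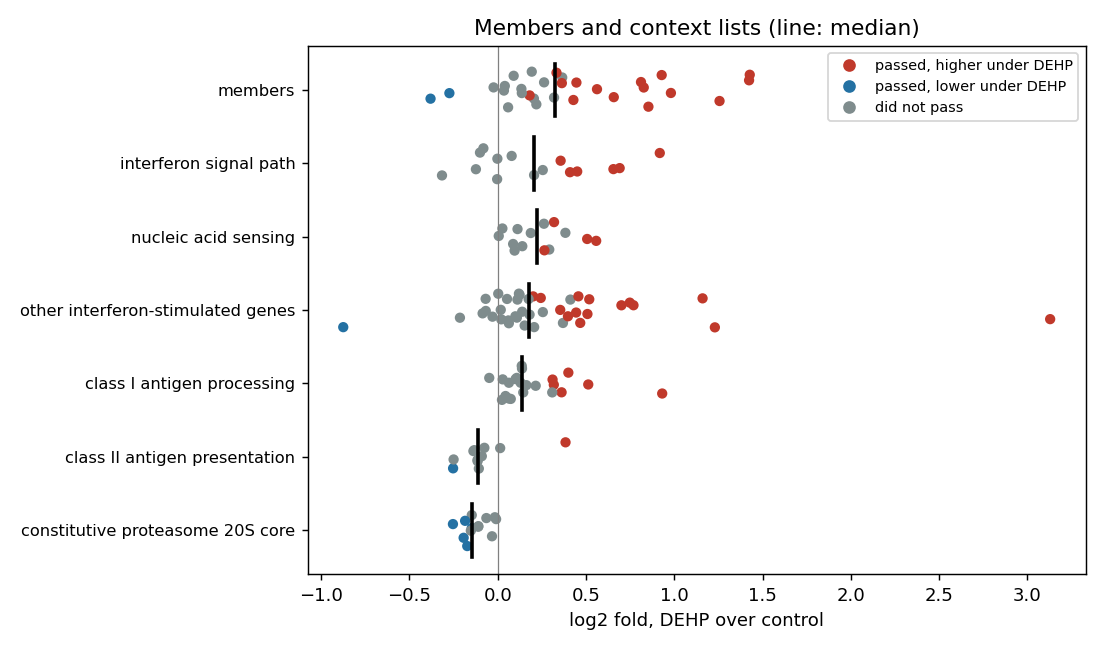
Log2 fold, DEHP over control (horizontal axis), of each measured gene in the 30 interferon-stimulated and antigen processing genes (top row, members) and in 6 related lists; black lines are medians and vertical scatter within a row carries no meaning. Medians run from 0.33 in the top row to -0.15 in the constitutive 20S core, and the red point at 3.13 is Cxcl11.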

How the data were processed

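RNA from 6 DEHP and 6 control cultures was hybridised to Affymetrix arrays, with 1 array for each culture. RMA is the tool named, per the submitters' processing notes, without a version. The authors deposited linear ratios: the median log2 ratio of every probe set over the 12 arrays lay within 5e-07 of 0, so levels and depth over background are unknown and the number of arrays sets the precision. The genome build behind the probes is not given in the sources used here.

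Log2 of the deposited ratio was fitted with limma 3.58.1 (lmFit and eBayes, R 4.3.3) over all 12 arrays, with Benjamini-Hochberg adjustment over 27342 probe sets and a threshold of 0.05. The script was tested on simulated data. Genes with several probe sets took the lowest-numbered one. The genes, the related lists and the tests were chosen with earlier results of these data known. All measured members were named, and up to 8 passing genes of each related list by smallest p. Pairs of genes were compared with exact permutation tests (scipy 1.17.1) over 6 pairs. Promoter windows and gene order came from RefSeq tables of GRCr8. Plots used matplotlib 3.10.9. Alternatives were array weights, robust eBayes, cyclic loess, quantile normalization, centring on the median, the replicate number as a block, a threshold of 0.01, the mean of a gene's probe sets, single-symbol probe sets alone, and arrays left out. For the pairs, leaving out arrays was chosen after seeing the data.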

Additional observations from a re-analysis of the deposited data

Results flagged for a closer look

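In 15 of 60 sets of 6 arrays (30 genes, 2 groups), 1 array lay farther from its group than Dixon's criterion for 6 values allows, which takes the gap to the nearest array over the whole range. Chance flags about 1 in 20 groups, and the genes share arrays, so the flags are not independent. DEHP replicate 6 was the highest of the DEHP arrays in 10 of them: the ratio was 0.85 for Irf1, 0.801 for Psmb9, 0.795 for Gbp2, 0.786 for Tap1, 0.755 for Psmb8, 0.739 for Dhx58, 0.713 for Rsad2, 0.702 for Oasl, 0.676 for Stat2 and 0.628 for Cmpk2. Control replicate 5 was the lowest control for Irf9 (0.823), Ifih1 (0.705), Stat2 (0.637) and Ifit2 (0.631), and the highest for Oas2 (0.716). The cause was not tested.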

How the results depend on the processing

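Of the 17 genes that passed, 11 kept their direction and their call under each alternative run at the 0.05 threshold. Cyclic loess left 0 members lower, since Ifit1 and Ifit2 no longer passed. Array weights raised the number of probe sets that passed to 7614, against 5016, and the stricter threshold of 0.01 lowered it to 3238 and the lower members to 1. Leaving out 1 array at a time gave 4211 to 5556 probe sets, 13 to 17 members higher, 2 to 2 lower and a median log2 fold of 0.22 to 0.36. In those fits Psmb9 lost its call without any 1 of 10 arrays (adjusted p 0.0536 to 0.0781), Psmb8 without control replicate 2 (0.0517), Dhx58 without control replicate 4 (0.0523) and Trim25 without DEHP replicate 4 (0.051).

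Psmb9 also lost its call under cyclic loess (0.0926). Among genes that did not pass, 3 gained a call: Oas1a under array weights (adjusted p 0.0183) and without control replicate 1 (0.0278) or DEHP replicate 5 (0.0365), Irf7 under quantile normalization (0.0207), array weights (0.00384), without control replicate 5 (0.0308), DEHP replicate 5 (0.0383) or both outlying arrays (0.022), and Tap1 under quantile normalization (0.0298), without DEHP replicate 6 (0.0421) or both (0.0318). Signs turned in 4 genes, none of which passed. Oas2 was at 0.000187 under quantile normalization, 0.000192 under cyclic loess, 0.00549 without control replicate 5 and DEHP replicate 6, and -0.0360 to 0.00606 with 1 array left out, above 0 without control replicate 5. Ifi44 was at -0.0515 under cyclic loess, -0.0232 without both arrays and -0.0132 to 0.101 with 1 left out, below 0 without control replicate 5 and at -0.00528 without DEHP replicate 4. Irf9 was at -0.0247 under cyclic loess, -0.0694 without both and -0.0230 to 0.107 with 1 left out, below 0 without control replicate 5. Irf1 was at -0.0422 without both and -0.0446 to 0.267 with 1 left out, below 0 without DEHP replicate 6. The cause was not tested.

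Same-numbered arrays of the 2 groups deviated together with correlations of 0.072 to 0.77 and did not all correlate best with their own number, so the numbers are not taken as pairs. The highest, 0.77, was that of DEHP replicate 5 with control replicate 5. DEHP replicate 5 stayed in the fit without control replicate 5 and DEHP replicate 6. With the replicate number as a block, 6541 probe sets passed, with 16 members higher and 2 lower, the added gene being Oas1a (adjusted p 0.016).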
